A study of Homo sapiens with 8 samples.

Results

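The METTL3-KD peaks described here are the 448 sites of N6-methyladenosine (m6A) enrichment whose summits lay in introns. They were chosen from the 1087 peaks deposited for METTL3 knockdown cells by position alone. A summit had to lie inside a gene body, in no annotated exon of any gene (GENCODE release 44 on GRCh37, the build the authors call hg19) and outside the mitochondrial genome, and no fold or q value was required. The deposited lists of both conditions held 3386 peaks. Methylated RNA immunoprecipitation sequencing (MeRIP-seq) had been performed on the established pancreatic cancer line MIAPaCa-2. The cells expressed a short hairpin RNA, which was a control sequence in one condition (shRNA-Control, called control cells) and targeted METTL3 in the other (shRNA-METTL3, called METTL3-KD cells). Each condition had 1 library of RNA precipitated with an anti-m6A antibody and 1 input library of total RNA. The 8 samples are the 4 libraries on 2 sequencer lanes each, so no library was repeated and no difference between conditions has a replicate check. The METTL3-KD cells had been received as an established line, and whether they were 1 clone was not stated in the sources used here.

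METTL3 is the catalytic subunit of the nuclear complex that methylates adenosines in newly made RNA, mostly in the sequence DRACH (A, G or T, then A or G, then AC, then A, C or T). Introns are transcribed with the exons and removed by splicing, usually while the transcript is still being made. Intronic m6A can be seen, for example, in RNA that is not yet spliced or in introns that are kept. The m6A mark in mature messenger RNA lies mainly in long internal exons and near the stop codon. The libraries were made without selection of polyadenylated RNA, so unspliced transcripts were not removed from them.

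The sequences from 5 of the stronger peaks and from the peak in METTL3, which rested on 1 fragment, are given first. They show which of these peaks held a DRACH match within 50 nt of the summit and which did not. Each line holds 30 bases of the host strand, 5′ to 3′, from the GRCh37 reference, with the DRACH match nearest the summit in capitals. The match lay 21 nt from the summit in MIER1, 6 nt in ZNF638, -28 nt in LYPLA2 and 24 nt in PPP1R9A. A minus sign means towards the 5′ end. These windows are placed around the match, and those of MIER1, LYPLA2 and PPP1R9A do not reach the summit. The peaks in LATS1 and METTL3 had no match within 50 nt of the summit and are shown around the summit in lower case.
MIER1: cagttgcttttgaGAACAtccagtttcacc
LATS1: gcttagagcagtgcctggcatatagttgat
ZNF638: tacatattgctttTAACTaattgtttcacc
LYPLA2: ggcagaagttggaGGACCtaggggaagcct
PPP1R9A: aatacttgggtatAAACAaaacaaagatgt
METTL3: agcagagcataattcagcaatcttgtcttg

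The windows lay at chr1:67427851-67427880 on the plus strand in MIER1 and chr6:150009767-150009796 on the minus strand in LATS1. That in ZNF638 was chr2:71581412-71581441 on the plus strand, and that in LYPLA2 chr1:24119437-24119466 on the plus strand. The PPP1R9A window was chr7:94646822-94646851 on the plus strand, and the METTL3 window was chr14:21968952-21968981 on the minus strand.

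As recorded by the peak caller, the m6A libraries held fewer distinct read positions (4508 in METTL3-KD and 7920 in control cells) than the inputs (52141 and 9291). The METTL3-KD input thus had 11.6 times as many distinct positions as the m6A library it was the background for, against 1.17 times in control cells. The inputs held 25.7 reads per distinct position in METTL3-KD and 310 in control cells. A raw count of a gene, above all in the control input, can therefore rest on few fragments, and similar counts in the lanes of 1 library do not test this. Input counts over genes summed to 1833005 reads in METTL3-KD and 3237968 in control cells, with lanes between 906240 and 1628753 reads. METTL3 itself had 0 reads in all 4 input lanes, so the labels could not be checked against it. Of the epithelial markers, KRT8 (10850 control and 1167 METTL3-KD reads) and KRT18 (3535 and 1212) were read in both inputs, KRT19 had 1 and 201 reads, and EPCAM and CDH1 had 0 in both. Of the mesenchymal markers, VIM had 8978 and 5649 reads, ZEB1 0 and 50, and FN1 0 in both. All leukocyte, endothelial and erythroid markers present in the table were at 0 in both inputs, and of the fibroblast markers COL1A2 had 1804 and 353 reads, while COL1A1 and DCN had 0 in both.

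Introns held a larger share of the METTL3-KD list than of the control list. The 448 members were 41.3% (95% Wilson interval 38.4% to 44.3%) of the 1084 METTL3-KD peaks outside the mitochondrial genome. In control cells 673 of 2298 peaks were intronic, 29.3% (27.5% to 31.2%), a difference of 12.04 percentage points (95% Newcombe interval 8.58 to 15.5). The other METTL3-KD peaks lay in exons (580) and between genes (56). All intervals cover counting error over the peaks of 1 library per condition, not variation between cultures, and the part of the differing numbers of distinct positions in these shares was not tested.

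Most members rested on a single fragment. The pileup, the number of distinct fragments at the summit, was 1 in 322 members (71.9%, 67.5% to 75.8%), 2 in 51, 3 in 47 and 4 or more in 28. A pileup of 1 gave a fold enrichment just under 2 in every case, and the 322 members took only 3 different −log10 q values, 2.94 in 237 of them, 1.93 in 58 and 1.41 in 27. At a q value under 0.01, the cut-off stated for peak calling in the study's methods, 363 members (81.0%) were left. With a fold above 2 as well, which the methods require of a significant peak, 126 (28.1%) were left, the same number as had a pileup of 2 or more. The share of single-fragment peaks in METTL3-KD exons was 69.5%, a difference of 2.39 points with an interval from -3.25 to 7.93. It was 57.4% in control introns, 14.5 points lower (8.83 to 19.99). The lists differed in their range of q, as all 673 control intronic peaks had a q under 0.01 and the 85 members above that limit all had a pileup of 1. Among peaks with a q under 0.01 the share was 65.3% in members, 7.93 points above control introns (1.70 to 13.97) and 8.04 points above METTL3-KD exons (1.17 to 14.8). At the upper end, 6.25% of members (4.36% to 8.88%) had a pileup of 4 or more, against 13.1% of METTL3-KD exonic peaks and 2.23% of control intronic peaks.

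**Figure D1:**
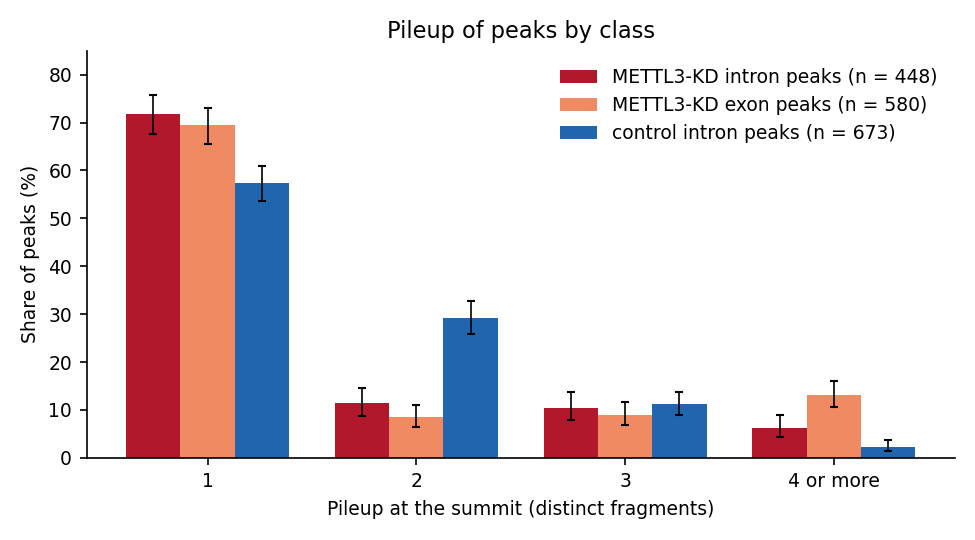
Share of peaks (%) by pileup at the summit for METTL3-KD intronic, METTL3-KD exonic and control intronic peaks, with 95% Wilson intervals as error bars. A pileup of 1 made up 71.9%, 69.5% and 57.4% of the 3 classes.

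Where a member held several fragments, its peak was mostly little longer than 1 fragment. The authors' peak caller extended each fragment to 100 bp and kept at most 1 read per position. The length of a peak beyond 100 bp is called its excess. It can fall short of the spread of the fragments, as some members with a pileup of 3 had an excess of 0 bp. Among the 126 members with a pileup of 2 or more, the excess was at most 5 bp in 116 (92.1%, 86.0% to 95.6%). The median excess was 1 bp at a pileup of 2, 2 bp at 3, 3 bp at 4, 4 bp at 5 and 6.5 bp at 6. The share was similar in control introns (92.7%) and was 78.5% in METTL3-KD exons, 13.5 points lower (5.41 to 21.1). An excess of at least 20 bp was found in only 2 members. One was the RPS29 peak of 240 bp, and the other was a peak of 151 bp and pileup 4 in MTHFD1L (chr6:151358729-151358879), a gene of mitochondrial folate metabolism that was singled out after its values were seen.

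**Figure D2:**
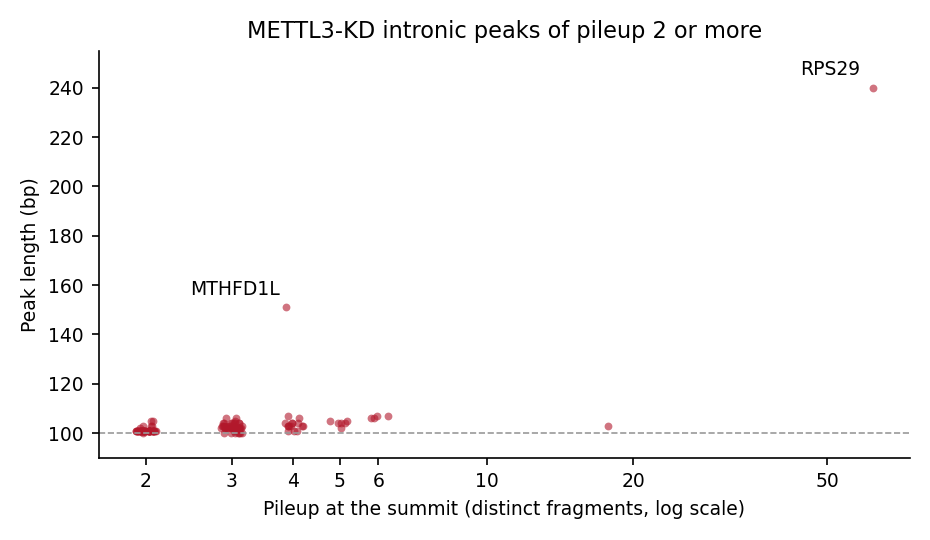
Peak length (bp) against pileup (distinct fragments, log scale, points shifted slightly sideways) for the 126 METTL3-KD intronic peaks with a pileup of 2 or more. The dashed line marks the fragment length of 100 bp, and only the RPS29 and MTHFD1L peaks stand clearly above it.

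The strongest member had the sequence of an abundant noncoding RNA. The highest pileup, 62 fragments at a fold of 8.93, lay in RPS29, a protein of the small ribosomal subunit (chr14:50053335-50053574). Its 240 bp were 98.3% identical to RN7SL3, a gene of 7SL RNA, with 236 of 240 bases shared. 7SL RNA is the scaffold of the signal recognition particle, and no exon of the lifted annotation used here covered the copy in RPS29. That annotation holds no entry named RN7SL1, the name of a related 7SL gene, so the place of this peak in an intron rests on the release used. Reads of this peak could therefore have come from several places in the genome, and which of them was not tested.

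A pileup of 6 was reached in MIER1, a transcriptional repressor, LATS1, a kinase of the Hippo pathway, ZNF638, a zinc finger protein, and SERPINB9, an inhibitor of granzyme B, with folds between 6.99 and 7.0. The LATS1 peak lay 4053 bp from an exon in intron 3 of 7, and it had no DRACH motif in the window searched. A pileup of 5 was reached by 6 members, and not all of them are named here. Those named lay in LYPLA2, a thioesterase of acylated proteins, and DHRS4-AS1, the antisense RNA of a short-chain dehydrogenase. Further ones lay in ARHGAP23P1, a pseudogene of ARHGAP23, and PPP1R9A, an actin-binding scaffold. ARHGAP23P1 and DHRS4-AS1 had near copies at 100% and 99.04% identity. In the input of the same cells, the reads of these hosts ranged widely. The METTL3-KD lanes held 156 and 167 reads of RPS29, 81 and 79 of SERPINB9, and 50 and 52 of ZNF638. They held 45 and 44 reads of LATS1, 45 and 42 of PPP1R9A, 23 and 14 of MIER1, and 5 and 5 of DHRS4-AS1, an antisense gene for which the use of strand in counting was not stated. LYPLA2 and ARHGAP23P1 had 0 reads in both METTL3-KD lanes. In the control lanes, LYPLA2 had 545 and 494 reads, and the other 8 of these hosts had 0.

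Near copies were searched for all members. Of the 445 members with reference sequence, 73 (16.4%, 13.3% to 20.1%) aligned elsewhere at 90% identity or more over at least 80 bases. The share was 17.6% in METTL3-KD exons and 22.6% in control introns. Most of these members had 1 to 9 copies (53), and 12 had 100 or more, such as the peaks in BPTF, a chromatin remodelling factor (2944 alignments), and CCDC88A, an actin-associated protein (3732), both with at most 200 alignments kept per chromosome. Near copies were also found for members named elsewhere here for other reasons. They numbered 4430 for the DAB1 peak, 844 for the ELF2 peak of pileup 4, and 4 each for the MTHFD1L and CTNNA3 peaks. The PDE10A peak of pileup 1 had 7. The AKR1C2 peak had 1, at 100% identity in an exon of AKR1C1. From which place the reads of these peaks came was not tested. The best copy lay in another intron for 50 members, in an exon for 13 and between genes for 9. Members with a near copy had a pileup of 2 or more in 32.9% of cases (23.2% to 44.3%), and those without in 26.9% (22.6% to 31.6%).

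The clearest repeat within 1 gene was in GTPBP6, a GTP-binding protein in the pseudoautosomal region, where 6 members sat on the X and Y copies. The windows around the summits of the 3 peaks on chromosome X are printed because they repeat. They lie at chrX:226474-226503, chrX:226813-226842 and chrX:227152-227181 on the minus strand and hold the same letters, the third shifted by 1 base.
GTPBP6 peak 1: tttccaaataatgtcccattcacaggttcc
GTPBP6 peak 2: tttccaaataatgtcccattcacaggttcc
GTPBP6 peak 3: ttccaaataatgtcccattcacaggttcca

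The summits were spaced by 339 bp on X, each with a pileup of 2, and by 339 and 342 bp on Y, with pileups of 2, 1 and 3. The 3 peaks on X were 100% identical to each other over at least 100 bp. The corresponding stretch of chromosome Y is masked in the reference used here, so the 3 Y peaks enter no sequence count. The 6 peaks are thus 1 repeated sequence counted several times. DHRS4-AS1 was a second such case, with 4 peaks (pileups 1 to 5) across 46325 bp that covers the related genes DHRS4, DHRS4L1 and DHRS4L2. Its summits paired by sequence, at 99.04% identity for one pair and 98.1% for the other.

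Host genes were long. The 448 members lay in 425 annotated genes (424 symbols), of which 406 held 1 member and 19 held several. Counting each member in the longest gene that contained it, the median host length was 97.1 kb (order-statistic interval 84.0 to 112.7 kb) with quartiles of 40.1 and 193.2 kb. Hosts of METTL3-KD exonic peaks had a median of 46.1 kb and those of control intronic peaks 86.5 kb (72.0 to 94.2 kb), and all 20163 protein-coding genes of the annotation had a median of 27.2 kb. Hosts of at least 100 kb held 48.7% of members, 22.8 points more than among METTL3-KD exonic peaks (16.9 to 28.5) and 4.08 points more than in control introns (-1.86 to 10.01). Long genes also hold most of the exon-free sequence, and 70.8% of all exon-free gene-body bases lay in genes of that size, so members were less often in such genes than a base drawn evenly from introns would be.

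Longer genes hosted a member more often, and held fewer members per base. Of protein-coding genes under 10 kb, 0.305% (0.188% to 0.494%) held a member, of those of 30 to 100 kb 2.32%, and of those of 300 kb or more 6.29% (4.83% to 8.15%). Per Mb of exon-free sequence the same classes held 2.25, 0.563 and 0.126 members. Control intronic peaks followed the same order, with 0.285%, 3.46% and 7.50% of genes and 1.69, 0.903 and 0.153 peaks per Mb. The longest hosts were CTNNA3, a catenin of cell junctions (1851 kb), ROBO2, an axon guidance receptor (1743 kb), DAB1, an adaptor of reelin signalling (1552 kb), and the transcription factors RUNX1 (1217 kb) and CAMTA1 (984.3 kb). Each of these 5 peaks had a pileup of 1, and of the 5 hosts only RUNX1 had input reads (81 and 119 in the METTL3-KD lanes). At the short end of the protein-coding hosts stood NUDT8, a Nudix hydrolase (2000 bp, pileup 4), NUDT16L1 (2298 bp, pileup 1) and the ribosomal protein gene RPL29 (2374 bp, pileup 4). GBX2, a homeobox factor (3151 bp, pileup 1), and LYPLA2 (4395 bp, pileup 5) came next. All 5 of these short-gene peaks reached into an exon. A pileup of 2 or more was found in 28.4% of members in hosts of at least 100 kb (22.9% to 34.8%) and in 27.8% of those in shorter hosts (22.4% to 33.9%).

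**Figure D3:**
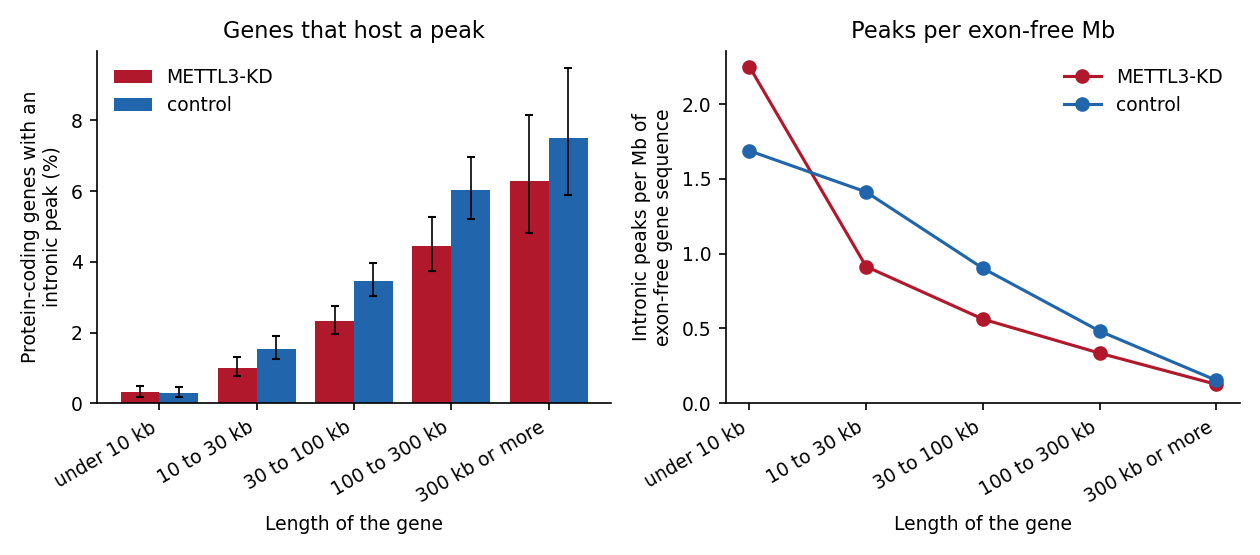
Left, share of protein-coding genes (%) with at least 1 intronic peak by gene length, with 95% Wilson intervals. Right, intronic peaks per Mb of exon-free sequence in the same genes. METTL3-KD values go from 0.305% to 6.29% of genes and from 2.25 to 0.126 peaks per Mb.

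By class, 404 members (90.2%, 87.1% to 92.6%) had a protein-coding host, 40 a long noncoding RNA and 4 a pseudogene. Long noncoding RNA hosts made up 8.93% of members (6.63% to 11.9%), 4.83% of METTL3-KD exonic peaks and 11.9% of control intronic peaks, and they held 26.4% of all exon-free gene-body bases. Their members had a pileup of 2 or more in 27.5% of cases, and those of protein-coding hosts in 28.0%. A total of 67 members lay in more than 1 gene, 37 of them in genes on opposite strands, where the deposited lists do not say which strand was read.

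Within the gene, members were found along its whole length. From the 5′ end, 5 equal parts of the host held 23.7%, 18.3%, 20.8%, 18.5% and 18.8% of them, and the median position was 46.3% of the length (42.2% to 51.4%), against 53.2% for control intronic peaks and 67.3% for METTL3-KD exonic peaks. Of the 407 members inside an intron of the canonical transcript, 109 (26.8%, 22.7% to 31.3%) were in the first intron and 32 (7.86%) in the last. In control cells these shares were 20.9% and 10.6%, so the first intron differed by 5.88 points (0.597 to 11.3). The other 41 members were intronic only with respect to other transcripts of the gene or beyond the canonical transcript.

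The exon-free stretch that held the summit had a median length of 5794 bp (4854 to 6651 bp) and ranged from 76 bp to 236467 bp. The intron of the canonical transcript had a median of 8169 bp. Control intronic peaks lay in stretches of a similar median, 5136 bp (4104 to 5889 bp). A base drawn evenly from all exon-free sequence lay in a stretch of 20081 bp at the median, so both sets of peaks were in shorter introns than that.

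Many members lay next to an exon. The median distance from the summit to the nearest exon was 1104 bp (919 to 1428 bp), 165 members (36.8%, 32.5% to 41.4%) were within 500 bp, and 113 (25.2%) within 100 bp. Of all exon-free gene-body bases, 13.99% lay within 500 bp of an exon and 3.45% within 100 bp. The interval of 101 members (22.5%) touched one, with a median of 28 bases (quartiles 18 and 41) inside it and the summit 23 bp outside at the median. Among the 347 members wholly outside exons, 64 (18.4%, 14.7% to 22.9%) were within 500 bp, against 12.4% of the exon-free bases over 50 bp from an exon, and the median distance was 1817 bp. Control peaks showed more of this proximity, with 46.5% within 500 bp and 34.8% touching an exon, and nearly the same share as METTL3-KD cells once these were left out (18.0%).

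**Figure D4:**
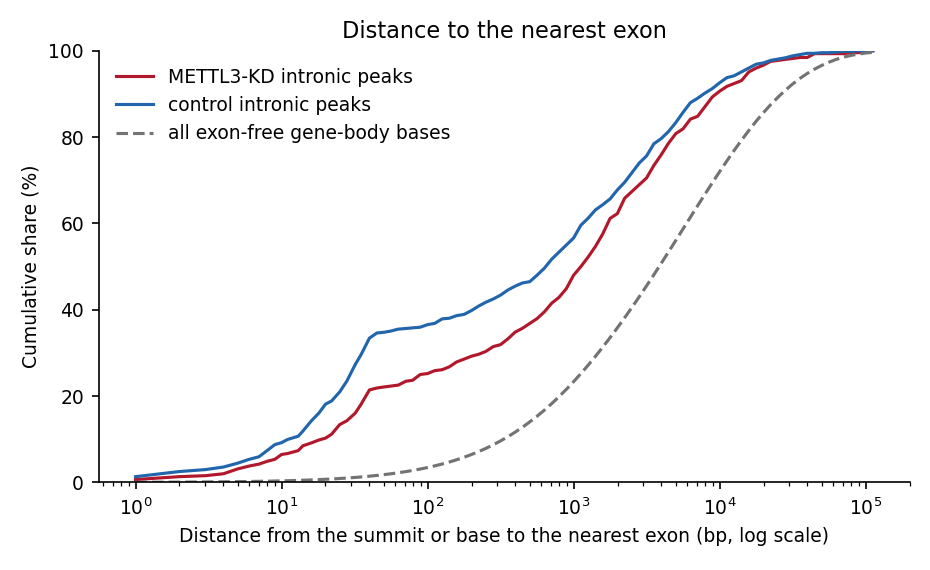
Cumulative share (%) of METTL3-KD intronic peaks, control intronic peaks and all exon-free gene-body bases by distance to the nearest exon (bp, log scale). At 500 bp the shares are 36.8%, 46.5% and 13.99%.

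The members that touched an exon lay on one side of it. Of the 95 with hosts on a single strand, a summit within 100 bp and an interval that reached into the exon, 87 (91.6%, 84.3% to 95.7%) had the summit before the exon, at the 3′ end of the preceding intron, and 8 had it after the exon. In control introns the count was 202 of 214 (94.4%, 90.5% to 96.8%). For the 10 members within 100 bp whose interval stayed outside exons, the sides were 4 before and 6 after. The peak caller places a fragment as 100 unbroken bases of the genome, and the lists do not hold the alignments, so whether the underlying reads crossed a splice junction was not tested. The nearest summits to an exon, at 1 or 2 bp, were in AKR1C2, a steroid-metabolising reductase, NUDT8, HUWE1, a ubiquitin ligase, PATL1, a factor of mRNA decapping, and KIF1A, a kinesin motor, with pileups of 1, 4, 3, 2 and 3. In the METTL3-KD lanes HUWE1 had 324 and 326 reads, KIF1A 35 and 37, PATL1 17 and 24, and AKR1C2 and NUDT8 had 0.

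At the other extreme, 42 members (9.38%) lay more than 10 kb from any exon, whereas 28.0% of exon-free bases did. The 5 farthest were in PRELID2 (103.3 kb), ARHGAP6, a GTPase-activating protein (90.2 kb), SLC25A21, a mitochondrial carrier (71.3 kb), PALM2AKAP2, an anchoring protein of protein kinase A (44.6 kb), and SUCLG2, a subunit of succinyl-CoA ligase (43.3 kb). Their pileups were 3, 1, 1, 1 and 3. The ARHGAP6 peak had 3906 near copies, the best at 100% identity, so its place is uncertain. Only SUCLG2 among these hosts had input reads, 21 and 23 in the METTL3-KD lanes. The pileup was 2 or more in 25.7% of members within 100 bp (18.5% to 34.4%), in 36.3% of those beyond that up to 1000 bp (27.6% to 45.9%) and in 25.8% of those farther away.

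A DRACH motif was common in these windows and nearly as common around them. At least 1 motif, searched as its letters on the host strand or on both strands where hosts lay on both, had its adenosine within 50 nt of the summit in 382 of 445 members (85.8%, 82.3% to 88.8%). Of all 7159050 windows of 101 nt in the exon-free stretches that hold the members, 83.8% contained one. The share was 87.9% in METTL3-KD exons and 86.8% in control introns, with differences of -2.07 points (-6.35 to 2.06) and -0.91 points (-5.17 to 3.12). The median was 2 motifs per member in all 3 classes. GGACT, 1 of the DRACH forms, was in 31 members (6.97%, 4.95% to 9.72%), in 9.15% of METTL3-KD exonic peaks and in 8.93% of control intronic peaks. A motif match is a description of letters and does not show that the site was methylated.

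Base composition followed the introns. The median GC content of members was 41.6% (40% to 43%), against 51% in METTL3-KD exonic peaks and 43.1% in control intronic peaks. Runs of at least 8 T on the host strand were in 4.27% of members (2.75% to 6.57%), 3.23 points more than in METTL3-KD exonic peaks (1.29 to 5.60) and at nearly the share of control introns (4.17%). Runs of at least 8 A were in 2.70%.

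The members shared few sites with the control list. Only 4 overlapped a control peak by at least 1 bp. In RPS29 the peaks shared 172 bp, with a control pileup of 89 at a fold of 2.63. In JAK2, a cytokine receptor kinase (chr9:5081639-5081738), and STRCP1, a pseudogene of stereocilin (chr15:44008358-44008457), both lists held the same interval of 100 bp with a pileup of 1. The interval in STRCP1 had a near copy at 100% identity. In CUBN, the vitamin B12 transport receptor cubilin (chr10:16994371-16994470), 10 bp were shared with a control peak whose summit was in the exon. By gene, 45 hosts held intronic peaks in both lists, 10.6% of the 425 METTL3-KD hosts and 7.32% of the 615 control hosts. In these the nearest METTL3-KD and control summits were 28941 bp apart at the median, and 3 of the 45 were within 1 kb. Exonic METTL3-KD peaks were found in the host gene of 35 members (7.81%, 5.67% to 10.7%).

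Of the hosts with several members beyond the repeated sequences above, LRBA, a vesicle traffic protein, held 2 peaks 198473 bp apart, PDE10A, a cyclic nucleotide phosphodiesterase, 2 peaks 66115 bp apart, and CMSS1, ARHGEF3, ARMH4 and CPNE8 2 each at distances from 50624 to 151992 bp. LCLAT1, a cardiolipin acyltransferase, had the closest pair, 207 bp apart at pileups of 1 and 2. The next closest was in INPPL1, 2936 bp apart with a pileup of 1 at both, and every other pair was at least 23311 bp apart. The highest pileups in such pairs were 4, in ELF2, a transcription factor, and in IGF2R, a receptor of lysosomal enzymes, where the second peaks had 1 and 3. INPPL1, ELF2 and IGF2R were chosen after their values were seen.

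Most hosts were seen in the input of the same cells. Of the 425 hosts, 400 were matched by identifier to the count table, and 277 of these (69.3%, 64.6% to 73.6%) had at least 1 read in the METTL3-KD input, with a median of 37 reads over the 400. The share was 71.6% for hosts of METTL3-KD exonic peaks, 74.9% for hosts of intronic control peaks and 39.6% for all protein-coding genes. In the control input 79 hosts (19.8%, 16.1% to 23.9%) had a read. The share there was 21.6% for hosts of intronic control peaks and 10.2% for all protein-coding genes. The count table does not separate intronic from exonic reads. In bulk RNA, fewer cells with a transcript and less of it per cell cannot be told apart.

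**Figure D5:**
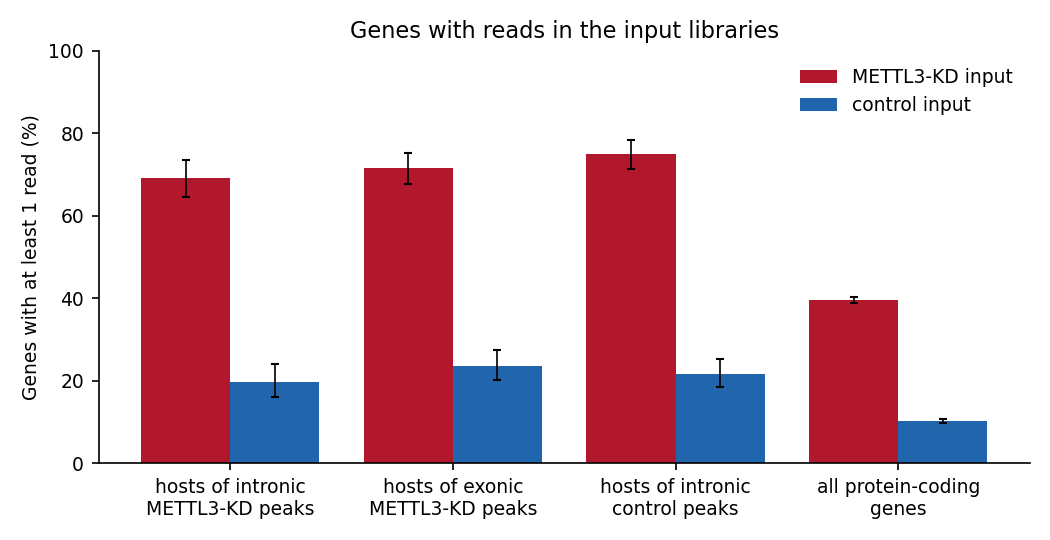
Share of genes (%) with at least 1 read in the METTL3-KD and control inputs for 3 sets of host genes and for all protein-coding genes, with 95% Wilson intervals. Hosts of METTL3-KD intronic peaks were at 69.3% and 19.8%, and all protein-coding genes at 39.6% and 10.2%.

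The ratio of the inputs was read for hosts beside the whole table. After scaling of the libraries by TMM (trimmed mean of M values), 215 of the 277 hosts with at least 10 reads over both inputs (77.6%, 72.4% to 82.1%) had a log2 ratio of METTL3-KD over control above 2, and the same was true of 79.1% of all 9931 genes tested. A log2 ratio under -2 was found for 25 hosts (9.03%, 6.19% to 13.0%) and for 7.37% of all genes. With the libraries scaled by total counts, 41 hosts and 1260 genes were under -2, against 25 and 732 with TMM. The higher hosts were mostly genes without control reads, since 200 of the 215 had 0 reads in both control lanes, and the size of such ratios depends on the prior count. Only 60 hosts had at least 10 reads in each input, and their median log2 ratio was -0.87 (-1.58 to -0.14), beside -0.61 (-0.71 to -0.52) over all such genes. HUWE1 was read in every lane, at 304 and 280 reads in control and 324 and 326 in METTL3-KD cells. Its log2 ratio was 2.34 with TMM, a value that depends on the scaling. With total counts the median over genes read in both inputs was -1.98, against -0.61 with TMM. CPNE8, a copine, was counted 612 and 584 times in the control lanes and 0 times in the METTL3-KD lanes. At 310 reads per distinct position in the control input, such counts can rest on few fragments, and how many was not tested.

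Grouped by function, the members were spread thinly over the lists of genes examined. Of the 20136 protein-coding symbols, 383 (1.90%, 1.72% to 2.1%) hosted a member, and 533 (2.65%) hosted an intronic control peak and are called control hosts. The share for a list is read beside those values and beside the length of its genes. The median length was 27.2 kb over all these symbols and 39.7 kb in the m6A list. It was 81.4 kb for protein kinases, 97.8 kb for small GTPase regulators, 105.3 kb for cytoskeleton and motors and 43.0 kb for membrane traffic. It was 39.65 kb for the ubiquitin system, 48.3 kb for transporters and channels and 34.3 kb for splicing and RNA-binding. The G2/M and S-phase lists had 33.5 and 33.6 kb. The m6A writers, readers and erasers had 3 hosts of 21 genes (14.3%, 4.98% to 34.6%), which were METTL3, the reader YTHDF2 and the reader IGF2BP2, while 2 of the 21 hosted an intronic control peak. The METTL3 peak (chr14:21968916-21969015) had a pileup of 1 and lay 89 bp from an exon in intron 5 of 10, which is 230 bp long. The YTHDF2 peak had a pileup of 2 and lay 8055 bp from an exon in the last of 4 introns, and its gene had 54 and 50 reads in the METTL3-KD lanes and 0 in control. The IGF2BP2 peak had a pileup of 1, 10 bp from an exon, and its gene had 247 and 239 control and 56 and 59 METTL3-KD reads. The cell cycle kinase gene PLK1, which the study followed, hosted no member.

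Among regulators of transcription and signalling, chromatin regulators had 7 hosts of 103 genes (6.80%, 3.33% to 13.4%) and 8 control hosts, with a median list length of 92.2 kb. The highest pileups of these were 3 in BPTF and 2 in ARID2, a subunit of a SWI/SNF complex, and KDM5B, a histone demethylase. Protein kinases had 9 hosts of 250 (3.6%, 1.91% to 6.70%) and 7 control hosts, led by LATS1 and followed by MARK4 and PRKCZ at a pileup of 2. PTK2, a focal adhesion kinase, had a pileup of 1, and its gene had 463 and 535 control reads and 0 METTL3-KD reads. Small GTPase regulators had 8 hosts of 175 (4.57%) and 9 control hosts, with ARHGEF12 at a pileup of 3. Zinc finger transcription factors, whose genes are shorter (median 25.9 kb), had 6 hosts of 606 (0.990%, 0.455% to 2.14%) and 12 control hosts. Of the 6, ZNF638 alone exceeded a pileup of 1. Pancreatic cancer driver genes (median 85.2 kb) had 4 hosts of 37 (10.8%, 4.29% to 24.7%), namely ARID2, ROBO2, PBRM1 and APC, and 0 control hosts. ARID2 had a pileup of 2 and the others a pileup of 1. All 4 hosts were longer than 100 kb. Of protein-coding genes of 100 to 300 kb 4.44% hosted a member, and of those of 300 kb or more 6.29%.

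Among genes of cell structure and protein turnover, the ubiquitin system had 20 hosts of 410 (4.88%, 3.18% to 7.41%) and 16 control hosts, with HUWE1 and RNF157 at a pileup of 3. Cytoskeleton and motor genes had 8 hosts of 139 (5.76%, 2.94% to 10.9%) and 13 control hosts, with DST, FMNL2 and KIF1A at 3. Membrane traffic genes had 10 hosts of 277 (3.61%, 1.97% to 6.52%) and 15 control hosts, with VPS41, a tethering factor of lysosomes, at 4. Adhesion and matrix genes, the list with the longest genes (median 136.3 kb), had 3 hosts of 284 (1.06%, 0.360% to 3.06%) and 12 control hosts. The 3 were CTNNA3, ROBO2 and COL1A1, each with a pileup of 1 and with 0 reads in all 4 input lanes. Transporters and channels had 9 hosts of 594 (1.52%) and 8 control hosts. Splicing and RNA-binding genes had 7 of 225 (3.11%) and 12 control hosts, with LARP4B and the decay kinase SMG1 at 3. None of the 54 G2/M genes and none of the 43 S-phase genes on the lists hosted a member. By the Wilson interval this allows shares of up to 6.64% and 8.20%. In control cells 4 and 2 of these genes hosted an intronic peak. The G2/M and S-phase lists do not hold every cell cycle gene. BUB1B and TK1, which are on neither, each hosted a member with a pileup of 3, and the BUB1B peak had 57 near copies. Both genes were singled out after their values were seen. No test of these lists was made, and their genes differ in length.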

How the data were processed

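Reads of MeRIP-seq libraries were cleared of ribosomal sequence with Bowtie2 and aligned to hg19 with HISAT2 by the authors. The deposited count table holds raw read counts per gene, made by the authors with featureCounts, for the input lanes. Peaks were called by the authors with MACS2 2.1.1, m6A over input with both lanes pooled, reads of 75 bp extended to 100 bp and a q cut-off of 0.05 per the file headers, whereas the methods state 0.01. The deposited pileup column is a signal (fragments at the summit), the fold column is the authors' ratio to the local background, and the deposited −log10 column is the q value of a peak.

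Members and lists were chosen with earlier results of these data known. Summits were placed on GENCODE release 44, and no peak passed the end of a chromosome. Near copies were searched with BLAST 2.17.0 (megablast). Lanes of an input were summed and counted as 1 library, because L001 and L002 are read as lanes. Log2 ratios used edgeR 4.0.16 with TMM factors from the whole table, a prior count of 2 and genes with at least 10 reads. With 1 library a condition no p-value was computed. Shares carry 95% Wilson intervals, their differences Newcombe intervals and medians order-statistic intervals, all for counting error only. Scripts were tested on simulated data. Genes were named by rule: the 10 highest pileups, up to 10 hosts with several members, members over a control peak, the 5 nearest to and 5 farthest from an exon, the 5 longest and 5 shortest protein-coding hosts, up to 6 hosts a list, METTL3 and PLK1. Some items that the rule names are not reported here. The G2/M and S-phase lists came from Seurat 5.3.0. Alternatives were q under 0.01, a pileup of at least 2, peaks wholly outside exons, protein-coding annotation only, other distance, window and identity limits, DESeq2 1.42.0 size factors, total count scaling, other read filters and prior counts, and each lane left out.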

Additional observations from a re-analysis of the deposited data

How the results depend on the processing

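Of 53 alternatives over 10 results, 43 left the value within its interval (counts: within 1.5 times) and 10 did not. Requiring a pileup of at least 2 in both lists left 126 members and 287 intronic control peaks. The share of these members whose host had such a control peak was 5.56%, a value that also reflects the shorter control list. Requiring q under 0.01 lowered the share with a pileup of 1 to 65.3%, because the 85 members removed all had a pileup of 1. Leaving out peaks that touch an exon raised the median exon-free stretch to 7966 bp and lowered the share within 500 bp of an exon to 18.4%. The median host length was 75008 bp when the shortest gene was taken as host. Narrower limits gave 25.2% within 100 bp of an exon, 64.9% with a DRACH motif within 25 nt and 11.5% with a near copy at 95% identity. With at least 50 reads, 121 hosts had a log2 ratio above 2, as fewer genes were tested. With either lane left out, the hosts with a read numbered 275 to 277 and those above a log2 ratio of 2 numbered 189 to 193. An alternative chosen after seeing the data, without peaks that have a near copy, changed none of the 7 values it was run on beyond their intervals. The median log2 ratio of genes read in both inputs moved from -0.61 to -0.36 with DESeq2 size factors and to -1.98 with total count scaling, where 41 hosts were under -2. No paired analysis was possible because the lanes belong to 1 library each and no test was made. The m6A libraries, with at most 7920 distinct positions, limit what a pileup can show: a member with a pileup of 1 is a single fragment.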
